A study of Danio rerio with 26 samples.

Results

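The 10 genes described here belong to Fgf signalling and were followed through oocyte growth, the first hours of embryonic development and a knockdown in zebrafish (Danio rerio). They comprised the 4 secreted ligands fgf3, fgf8a, fgf17 and fgf24, the 4 inhibitors dusp6, spry2, spry4 and il17rd, and the 2 Ets transcription factors etv4 and etv5b. The 10 genes were chosen by name from the 32520 identifiers listed, each name matched 1 identifier, and the identifier joined the 3 expression tables. RNA abundance was given as TPM, transcript abundance scaled by gene length and to a total of 1000000 in every library. The knockdown table held 4 hpf (hours post fertilisation) embryos labelled znf281b KD and 4 hpf embryos labelled pCas13d alone, with 3 libraries each. Cas13d is a nuclease that finds and cuts RNA with the help of a guide RNA, and znf281b encodes a zinc finger protein. The embryo table held embryos with no treatment in their labels, called wild type here, at 0 (1-cell stage), 2, 4 and 6 hpf, with 3 libraries of 20 pooled, dechorionated embryos per time. The oocyte table held stages I, II, III and IV, with 2 libraries of 50 pooled oocytes per stage. Every library carries the same genotype label, AB, TF and TLF, which does not tell which strains a single pool held. Embryo age in hours is the only age given for the embryos. Stages I and II were collected 1 to 2 days, stage III 4 to 7 days and stage IV 8 to 10 days after ripe eggs had been purged by mating. A pair of collagenases was used to isolate stages I and II, 1 collagenase for stage III, and forceps and needle without enzyme for stage IV. The sources used here do not give the guide RNAs, the number of embryos per pool or the library kit of the knockdown.

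Fgf ligands bind receptor tyrosine kinases on the cell surface, and the receptors pass the signal through Ras to the MAP kinase ERK, which switches on target genes. Several of those targets act back on the pathway. Dusp6 removes phosphates from ERK, Sprouty proteins act between the receptor and ERK, and Il17rd, also called Sef, is a transmembrane inhibitor. Etv4 and Etv5b are DNA-binding factors of the Pea3 subfamily that are widely used as readouts of Fgf signalling. In the zebrafish blastula and gastrula Fgf signalling acts at the margin of the blastoderm, where mesoderm and endoderm form, and on the dorsal side.

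The targeted gene was checked first. In the 3 znf281b KD libraries znf281b stood at 149.12, 146.63 and 171.29 TPM, against 219.38, 268.81 and 266.63 TPM in the 3 pCas13d alone libraries. All KD libraries were thus below all controls, and the difference on the log2(TPM + 1) scale was -0.69 (SE 0.11, limma adjusted p = 0.00991). That call was lost without KD replicate 1 (adjusted p = 0.0513) or KD replicate 2 (adjusted p = 0.0573). Libraries of the same group correlated across genes with a Pearson's r of 0.9856 to 0.9949 in embryos, 0.9853 to 0.9931 in the knockdown table and 0.9755 to 0.9919 in oocytes. TPM keeps no read depth, so depth is unknown. Wild-type replicate 2 at 4 hpf and pCas13d alone replicate 3 each held the highest value of their group for 7 of the 10 genes. Wild-type replicate 2 was far above the other 4 hpf libraries for fgf8a and fgf17. For fgf3 and etv4 the lowest library, replicate 3, was further from the others. The pCas13d alone replicate 3 stood apart for fgf17, spry2, etv4 and etv5b, among others. Calls of the 10 genes that changed without 1 of these libraries are given with and without it. The sizes of most other differences are given only with all libraries. Embryo and oocyte samples are described as biological replicates, while the origin of the knockdown replicates is not stated, so the spread behind its p-values is that between these libraries and may be technical. In whole embryos, fewer cells expressing a gene and less RNA per cell cannot be told apart.

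At 6 hpf 9 of the 10 genes were higher in TPM than at 0 hpf, having risen at different steps, and il17rd was lower, a direction that turned round after scaling. The inhibitor dusp6 and the ligands fgf3 and fgf17 were near or at 0 TPM before 4 hpf and had risen by then. fgf24 stayed near 0 TPM up to 4 hpf and was higher at 6 hpf. spry4 climbed from at most 0.36 TPM before 4 hpf, and spry2, etv4 and fgf8a climbed from low levels. The RNAs of il17rd and etv5b were already abundant in the egg. Tests were made with limma over all genes at a Benjamini-Hochberg adjusted p under 0.05. At 2 hpf compared with 0 hpf 0 of the 10 genes passed the limma test, beside 0.0122% of all tested genes, and 625 of all 16328 tested genes had an unadjusted p under 0.05. At 4 hpf compared with 2 hpf 7 of the 10 rose, against 11.0% of all genes, and 2 fell, against 54.7% of all genes. At 6 hpf compared with 4 hpf 8 rose, against 22.8% of all genes, and 1 fell, against 55.8%. At 6 hpf compared with 0 hpf 9 rose, against 21.9% of all genes, and 1 fell, against 67.2%. Of the 10, 5 (fgf3, fgf17, fgf24, dusp6 and spry4) entered the test only through the times at which they were high, so these counts describe the genes and are not support for a rise of the group. TPM are shares of a library, and the median log2 difference of all genes was -0.43 for 4 minus 2 hpf, -0.56 for 6 minus 4 hpf and -1.07 for 6 minus 0 hpf. After median-of-ratios scaling these medians were 0.04, 0.04 and 0.03, and 8, 10 and 10 of the genes rose in the 3 comparisons while 0 fell.

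**Figure D1:**
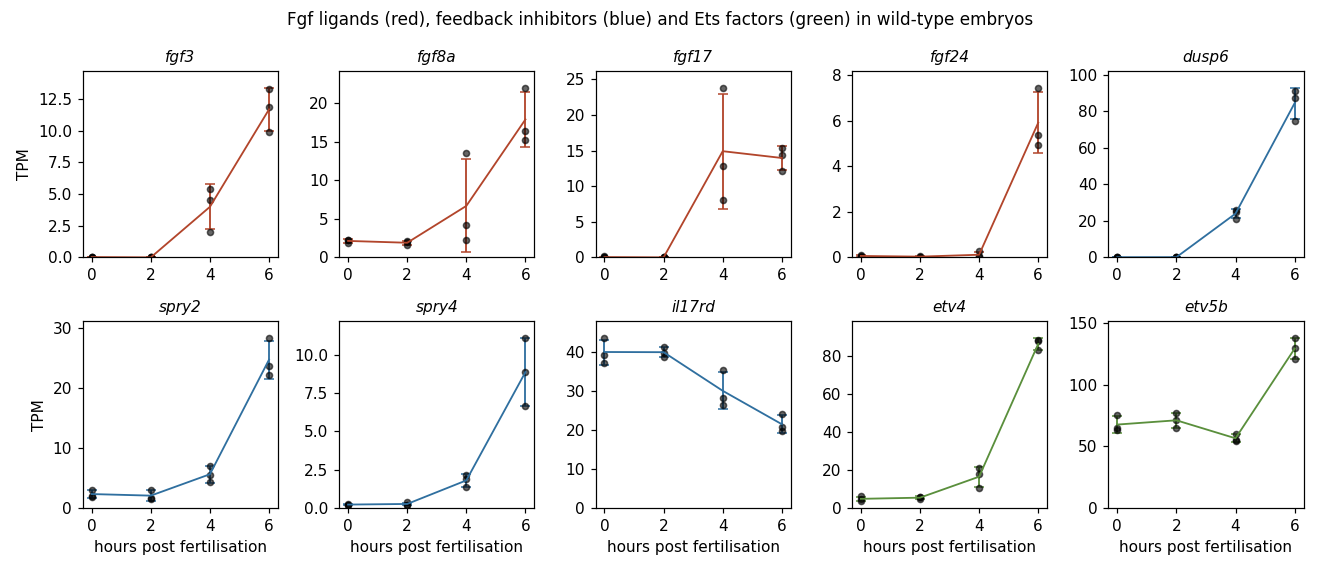
TPM (vertical axis, starting at 0, with a scale of its own per gene) against hours post fertilisation in wild-type embryos. Points are the 3 libraries per time, lines join means and error bars are SD. dusp6, etv4, spry2 and spry4 climb steeply to 6 hpf, fgf17 has its mean of 14.9 TPM already at 4 hpf, and the TPM of il17rd decline, a direction that turned round after median-of-ratios scaling.

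Among the ligands, fgf3 (ENSDARG00000101540), which acts together with fgf8a in several zebrafish tissues, was listed at 0.04, 0.04 and 0 TPM at 0 hpf and at 0 TPM in all 3 libraries at 2 hpf. It reached 4.56, 5.42 and 2.01 TPM at 4 hpf and 9.9, 13.3 and 11.9 TPM at 6 hpf. The libraries of 4 and 6 hpf did not overlap with each other or with the earlier ones. On the log2(TPM + 1) scale the difference was 2.25 for 4 minus 2 hpf (SE 0.23, limma adjusted p = 4.06e-06), a value that depends on the added 1 because 2 hpf is listed at 0. The difference for 6 minus 4 hpf was 1.41 (SE 0.23, limma adjusted p = 9.47e-05).

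fgf17 (ENSDARG00000102778), a ligand of the Fgf8 subfamily, had the earliest course of the 4. It was listed at 0 TPM in 5 of the 6 libraries at 0 and 2 hpf and at 0.13 TPM in the other one. At 4 hpf it stood at 12.86, 23.83 and 8.06 TPM, and at 6 hpf at 12.11, 14.37 and 15.41 TPM. The 6 hpf libraries lay inside the range of the 4 hpf libraries, while both times lay above the earlier ones. On that scale fgf17 differed by 3.87 for 4 minus 2 hpf (SE 0.27, limma adjusted p = 1.63e-07), again set in part by the added 1. For 6 minus 4 hpf it was 0.03 (95% confidence interval -0.57 to 0.62, limma adjusted p = 0.929), and after scaling it was 0.85 (limma adjusted p = 0.0249). Its sign also turned without 4 hpf replicate 1 (-0.01), 4 hpf replicate 3 (-0.32) or 6 hpf replicate 3 (-0.04).

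fgf8a (ENSDARG00000003399), known for roles in mesoderm and in dorsoventral patterning of the gastrula, was the only one of the 4 ligands above 1 TPM in the egg. It stood at 2.31, 1.91 and 2.2 TPM at 0 hpf and at 1.59, 2.01 and 2.1 TPM at 2 hpf. At 4 hpf the libraries were spread, at 4.18, 13.58 and 2.29 TPM, and at 6 hpf they reached 16.43, 22.02 and 15.27 TPM. The lowest 4 hpf library lay just above the highest 2 hpf library, whereas 6 hpf was clear of all other times. fgf8a differed by 1.12 on the log2(TPM + 1) scale for 4 minus 2 hpf (SE 0.39, limma adjusted p = 0.0238) and 1.57 for 6 minus 4 hpf (SE 0.39, limma adjusted p = 0.00255). The rise by 4 hpf rested on 1 library, since without 4 hpf replicate 2 it was 0.51 (limma adjusted p = 0.0596), and it also missed the threshold without 2 hpf replicate 1 (1.04, limma adjusted p = 0.0685), without the filter on low TPM (limma adjusted p = 0.0531) and with only the 2 times in the fit (limma adjusted p = 0.0511).

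fgf24 (ENSDARG00000037677), which in zebrafish acts with fgf8a in posterior mesoderm, came last. No library from 0 to 4 hpf exceeded 0.26 TPM, and the 4 hpf libraries stood at 0.03, 0.26 and 0.06 TPM. At 6 hpf it stood at 4.92, 7.44 and 5.36 TPM, above every earlier library. Its log2(TPM + 1) difference was 0.11 for 4 minus 2 hpf (SE 0.15, limma adjusted p = 0.532) and 2.62 for 6 minus 4 hpf (SE 0.15, limma adjusted p = 5.49e-09).

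Of the inhibitors, dusp6 (ENSDARG00000070914), the phosphatase of ERK, had the largest difference of the 10 genes between 6 and 0 hpf, at 6.27 on the log2(TPM + 1) scale (SE 0.13, limma adjusted p = 3.04e-12). It stood at 0.11, 0.11 and 0.09 TPM at 0 hpf and at 0.11, 0.12 and 0.11 TPM at 2 hpf. It then reached 26.03, 21.01 and 24.94 TPM at 4 hpf and 74.99, 91.02 and 87.6 TPM at 6 hpf. Within each time the libraries lay close together, and the step at each side of 4 hpf was free of overlap. The 2 steps came to log2(TPM + 1) differences of 4.48 for 4 minus 2 hpf (SE 0.13, limma adjusted p = 3.51e-11) and 1.78 for 6 minus 4 hpf (SE 0.13, limma adjusted p = 5.5e-08).

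Both Sprouty genes rose at both steps after 2 hpf. spry2 (ENSDARG00000078308) stood at 2.05, 3.05 and 1.83 TPM at 0 hpf, 3.05, 1.67 and 1.42 TPM at 2 hpf, 5.52, 7.07 and 4.26 TPM at 4 hpf, and 22.18, 28.32 and 23.74 TPM at 6 hpf. Its log2(TPM + 1) difference was 1.13 for 4 minus 2 hpf (SE 0.23, limma adjusted p = 0.000806) and 1.98 for 6 minus 4 hpf (SE 0.23, limma adjusted p = 3.47e-06). spry4 (ENSDARG00000068732) stood at 0.24, 0.19 and 0.22 TPM at 0 hpf, 0.36, 0.19 and 0.22 TPM at 2 hpf, 1.35, 2.15 and 1.88 TPM at 4 hpf, and 6.63, 11.05 and 8.88 TPM at 6 hpf. For both genes every 4 hpf library exceeded every 2 hpf library and every 6 hpf library exceeded every 4 hpf library. spry4 differed by 1.14 on the log2(TPM + 1) scale for 4 minus 2 hpf (SE 0.17, limma adjusted p = 0.000104) and 1.80 for 6 minus 4 hpf (SE 0.17, limma adjusted p = 7.15e-07). The added 1 makes the earlier difference of spry4 small, and the order of its steps turned with the scale: its ratio of means was 6.99 for 4 over 2 hpf and 4.94 for 6 over 4 hpf. For spry2 these ratios were 2.74 and 4.41.

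il17rd (ENSDARG00000098359) differed from the other inhibitors in having a large egg supply. It stood at 37.33, 39.25 and 43.6 TPM at 0 hpf, 39.83, 41.44 and 38.77 TPM at 2 hpf, 28.32, 26.46 and 35.49 TPM at 4 hpf, and 19.67, 24.01 and 20.83 TPM at 6 hpf. The 4 hpf libraries were below all earlier ones and the 6 hpf libraries below all others. Its log2(TPM + 1) difference was -0.41 for 4 minus 2 hpf (SE 0.12, limma adjusted p = 0.00903) and -0.46 for 6 minus 4 hpf (SE 0.12, limma adjusted p = 0.00318), but after scaling to the median gene these became 0.16 (adjusted p = 0.108) and 0.38 (adjusted p = 0.000498). Its decline in TPM was therefore close to that of the median gene at the first step and smaller than that of the median gene at the second.

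The Ets factors differed in their egg supply. etv4 (ENSDARG00000018303) stood at 3.74, 6 and 4.55 TPM at 0 hpf, 4.66, 5.78 and 5.71 TPM at 2 hpf, 17.82, 20.82 and 10.62 TPM at 4 hpf, and 88.18, 87.84 and 82.84 TPM at 6 hpf. No library of 4 hpf overlapped with those before or after. etv4 differed by 1.40 on the log2(TPM + 1) scale for 4 minus 2 hpf (SE 0.21, limma adjusted p = 8.57e-05) and 2.37 for 6 minus 4 hpf (SE 0.21, limma adjusted p = 2.9e-07).

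etv5b (ENSDARG00000044511) was the most abundant of the 10 genes at every embryonic time. It stood at 62.92, 64.69 and 75.02 TPM at 0 hpf, 76.87, 70.98 and 65.14 TPM at 2 hpf, 53.99, 55.21 and 60 TPM at 4 hpf, and 120.5, 137.41 and 129.26 TPM at 6 hpf. The 4 hpf libraries were the lowest and the 6 hpf libraries the highest, with no overlap between neighbouring times from 2 hpf on. The log2(TPM + 1) difference for 4 minus 2 hpf was -0.33 (SE 0.10, limma adjusted p = 0.01), which became 0.25 (limma adjusted p = 0.0191) after scaling and missed the threshold without 2 hpf replicate 1 (-0.27, limma adjusted p = 0.0513). For 6 minus 4 hpf it was 1.18 (SE 0.10, limma adjusted p = 1.4e-07).

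The order of levels changed with time. At 0 hpf etv5b and il17rd led with means of 67.5 ± 6.54 and 40.1 ± 3.21 TPM (SD, n = 3 libraries each), and no other member averaged above 5 TPM. At 6 hpf the order was etv5b, etv4, dusp6, spry2, il17rd, fgf8a, fgf17, fgf3, spry4 and fgf24, from 129 ± 8.46 TPM to 5.91 ± 1.35 TPM (SD, n = 3). In that order only the libraries of etv5b and etv4, and those of dusp6 and spry2, were apart, while all other neighbours overlapped. By 4 hpf il17rd stood at 140% of its 6 hpf mean, fgf17 at 107%, etv5b at 43.7%, fgf8a at 37.3% and fgf3 at 34.2%. dusp6 stood at 28.4%, spry2 at 22.7%, spry4 at 20.3%, etv4 at 19.0% and fgf24 at 1.98%. Without 4 hpf replicate 2 fgf8a stood at 18.1%, below dusp6 (30.2%), spry2 (19.8%) and spry4 (18.2%), while fgf17 stood at 74.9%, fgf3 at 28.1% and fgf24 at 0.76%.

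**Figure D2:**
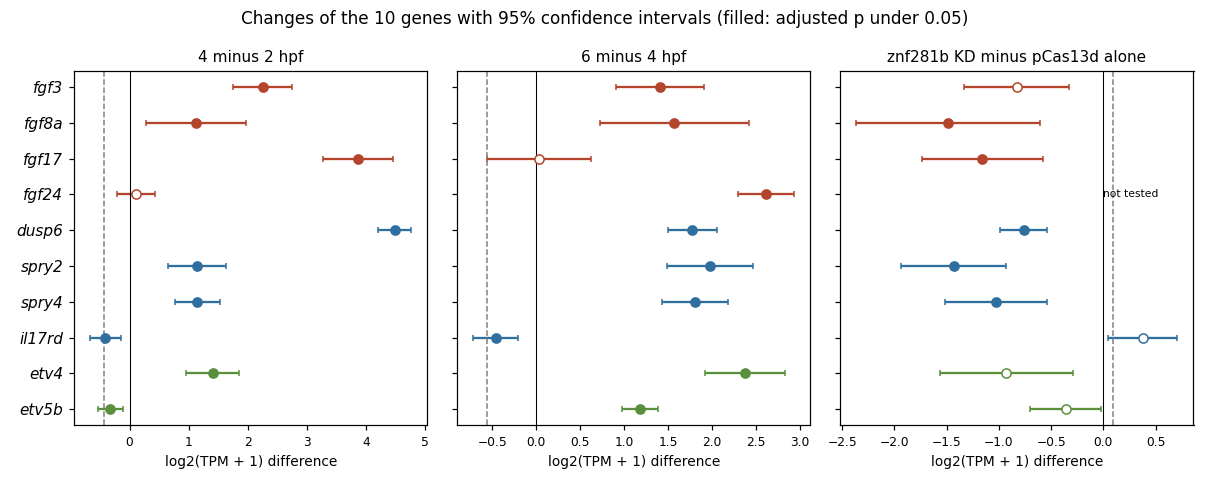
Differences on the log2(TPM + 1) scale (horizontal axis) of the 10 genes, with 95% confidence intervals from limma, for 4 minus 2 hpf, 6 minus 4 hpf and znf281b KD minus pCas13d alone. Filled points passed an adjusted p under 0.05, the solid line marks 0 and the dashed line the median of all tested genes. dusp6 has the largest difference at the first step (4.48), fgf24 at the second (2.62), and the points left of 0 at the embryo steps, il17rd at both and etv5b at the first, moved to the right of 0 after median-of-ratios scaling.

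In wild-type and pCas13d alone embryos at 4 hpf the libraries of the ligands were widely spread, and in znf281b KD embryos they were less so. The summed TPM of the 4 ligands was 21.63, 43.09 and 12.42 in replicates 1 to 3, so the highest library held 3.47 times the lowest. By gene this ratio was 5.93 for fgf8a, 2.96 for fgf17 and 2.7 for fgf3, beside 1.96 for etv4, 1.66 for spry2, 1.59 for spry4, 1.34 for il17rd, 1.24 for dusp6 and 1.11 for etv5b. In the pCas13d alone libraries, also of 4 hpf, the ligand sum was 40.76, 31.65 and 71.31, a ratio of 2.25. There the ratio was 3.35 for fgf8a, 2.35 for etv4, 2.04 for fgf17, 1.78 for fgf3 and 1.68 for spry2. It was 1.49 for il17rd, 1.44 for etv5b, 1.15 for spry4 and 1.02 for dusp6. In the znf281b KD libraries the ligand sum ranged from 15.85 to 20.77, a ratio of 1.31. There the ratio was 1.95 for fgf8a, 1.22 for fgf17 and 1.13 for fgf3, beside 2.03 for spry4 and 1.08 for dusp6. A narrow spread at 4 hpf was thus neither shared by every inhibitor nor confined to dusp6. At 6 hpf the ligand sum varied 1.32-fold and the sum of the 4 inhibitors 1.25-fold, and the spread was not tested at any time.

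Replicate 2 at 4 hpf had the highest value of its time for 7 of the 10 genes, replicate 2 at 6 hpf for 8 of the 10, and replicate 3 of pCas13d alone for 7 of the 10. Sums of marker lists of several kinds moved with the 4 hpf libraries. The margin and mesendoderm markers, 14 matched genes such as tbxta, noto and gsc, summed to 406.72, 308.32 and 651.68 TPM in pCas13d alone and to 227.44, 339.22 and 134.23 TPM in the wild type at 4 hpf. Much of that sum was tbx16 and noto, at 222.73 and 179.73 TPM in pCas13d alone replicate 3. Not every gene followed the order of the sum. In pCas13d alone gsc was highest in replicate 1 (34.99 TPM) and lft2 lowest in replicate 3 (14.93 TPM). The 9 enveloping layer and yolk syncytial layer markers followed the same order of libraries, at 957.05, 657.88 and 1427.26 TPM in pCas13d alone and 383.84, 585.13 and 244.33 TPM in the wild type. The 13 maternal oocyte transcripts had the inverse order, at 1680.41, 1873.24 and 1114.41 TPM in pCas13d alone and 1224.88, 932.87 and 1709.94 TPM in the wild type. Their part in the results was not tested. Without 4 hpf replicate 2, 8 of the 10 genes passed the test for 4 compared with 2 hpf, and the one lost was fgf8a. Leaving out 6 hpf replicate 2 changed no call or direction of the 10 genes.

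**Figure D3:**
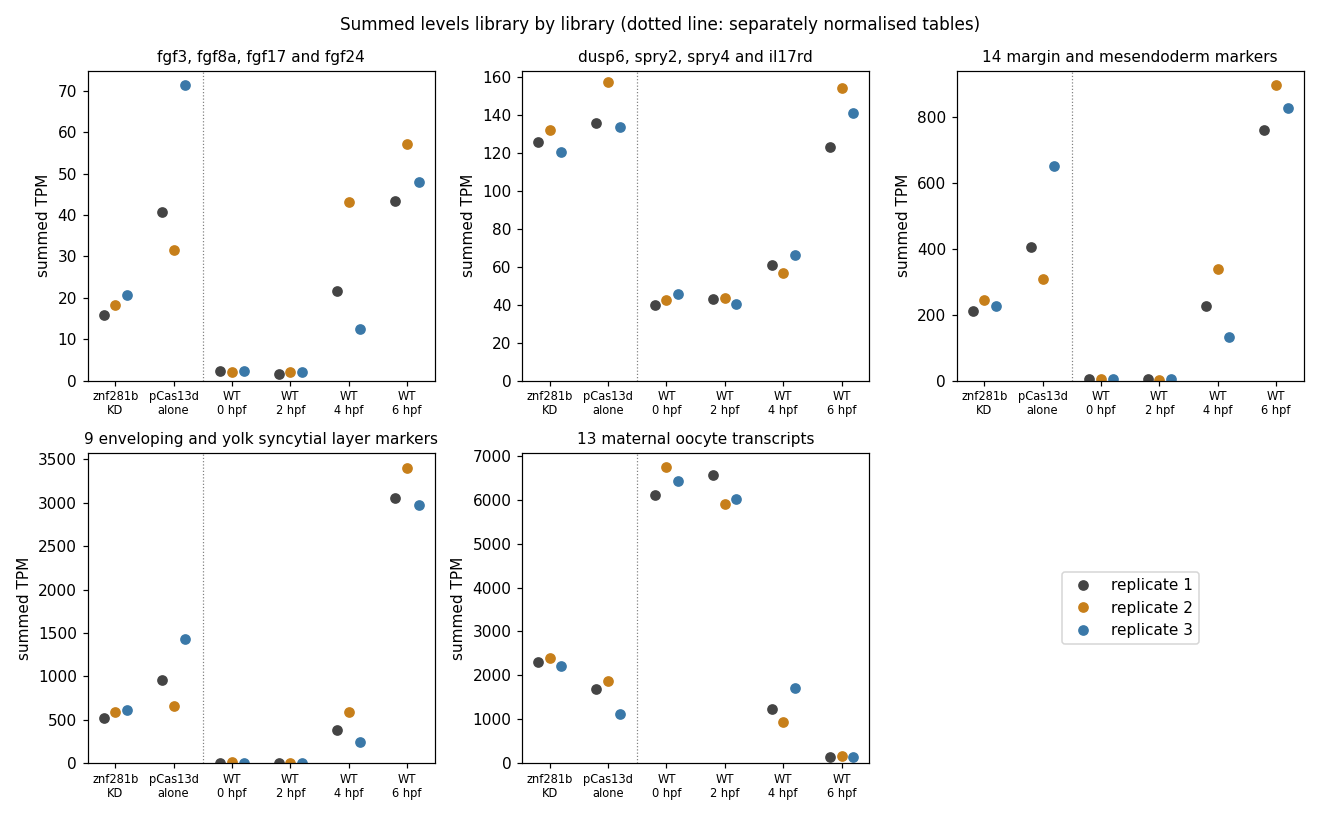
Summed TPM (vertical axes, starting at 0) of the 4 ligands, the 4 inhibitors, 14 margin and mesendoderm markers, 9 enveloping layer and yolk syncytial layer markers and 13 maternal oocyte transcripts in each library of znf281b KD, pCas13d alone and wild-type (WT) embryos at 0, 2, 4 and 6 hpf. Colours mark replicate numbers. At 4 hpf in the wild type the ligand sum ranges from 12.42 to 43.09 and the inhibitor sum, which is mostly dusp6 and il17rd, from 56.69 to 66.57, and the maternal transcripts run in the inverse order of both other marker lists.

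Most other Fgf ligands were low in every group. Of the 20 other ligands, 14 stayed under 1 TPM in all groups, and only fgf20a reached a group mean of 5 TPM, in the knockdown table. In the wild type fgf20a averaged 1.27 ± 0.38 TPM at 4 hpf and 0.04 ± 0.03 TPM at 6 hpf, and was listed at 0 in all libraries at 0 and 2 hpf (SD, n = 3). Of the 7 receptor genes matched, fgfr4, fgfr1a and fgfr1b reached 5 TPM. fgfr4, which encodes a signalling receptor, was at most 0.08 TPM at 0 and 2 hpf, then 34.21, 48.13 and 33.76 TPM at 4 hpf and 62.99, 95.65 and 70.77 TPM at 6 hpf. All 4 hpf libraries were above the earlier ones and below those of 6 hpf, and the log2(TPM + 1) difference was 5.22 for 4 minus 2 hpf (SE 0.17, limma adjusted p = 1.32e-10) and 0.96 for 6 minus 4 hpf (SE 0.17, limma adjusted p = 0.000233). Like 5 of the members, fgfr4 entered the test only through the times at which it was high, and its earlier difference depends on the added 1. fgfr1a, supplied in the egg, averaged 24.0 ± 6.24 TPM at 6 hpf and 36.6 ± 2.43 TPM at 4 hpf (SD, n = 3), a log2 difference of -0.61 (limma adjusted p = 0.00221) that became 0.23 after scaling.

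The wider pathway lists held rises and falls in shares that are given beside those of all genes. The list of 17 other feedback regulators and MAPK phosphatases was not confined to inhibitors, since it also held flrt3 and cnpy1. Of these 17 genes 14 were tested. At 4 compared with 2 hpf 2 rose (14.3%, against 11.0% of all genes) and 9 fell (64.3%, against 54.7%). At 6 compared with 4 hpf 5 rose (35.7%, against 22.8%) and 8 fell (57.1%, against 55.8%). The median log2 difference of that list was -0.47 and -0.30 at these steps, beside -0.43 and -0.56 over all genes, and after scaling 2 rose and 3 fell, then 7 rose and 3 fell. flrt3, which encodes a membrane protein that modulates Fgf signalling in frog embryos, rose to 58.2 ± 8.00 TPM at 6 hpf against 5.50 ± 2.79 TPM at 4 hpf (log2 difference 3.27, SE 0.25, limma adjusted p = 6.89e-08, n = 3 each). dusp4, a nuclear MAPK phosphatase, rose to 51.1 ± 9.94 TPM against 28.1 ± 1.58 TPM (limma adjusted p = 0.000147). Of 12 other Ets factors and Capicua genes, 9 were tested. At 6 compared with 4 hpf 3 rose (33.3%, against 22.8% of all genes) and 5 fell (55.6%, against 55.8%), and 4 rose and 5 fell after scaling. Among those that fell was etv5a, the paralogue of etv5b, at 18.6 ± 1.46 TPM at 6 hpf and 70.8 ± 16.1 TPM at 4 hpf (log2 difference -1.85, SE 0.14, limma adjusted p = 7.72e-08). At the step where etv5b rose, etv5a thus fell.

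In znf281b KD embryos the ligands fgf8a and fgf17, dusp6 and both Sprouty genes were lower than in pCas13d alone embryos. Of the 9 genes tested 5 fell, namely fgf8a, fgf17, dusp6, spry2 and spry4, against 3.05% of all tested genes, and 0 rose, against 6.32%. All 3 KD libraries lay below all 3 controls for 8 of the 10 genes, an arrangement seen in 11.3% of tested genes, and il17rd lay above them, as 23.6% of tested genes did. For these 9 genes the two-sided exact permutation p was 0.1, the smallest that 3 libraries against 3 allow. The median log2 difference of all genes was 0.09, or 0.01 after scaling.

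**Figure D4:**
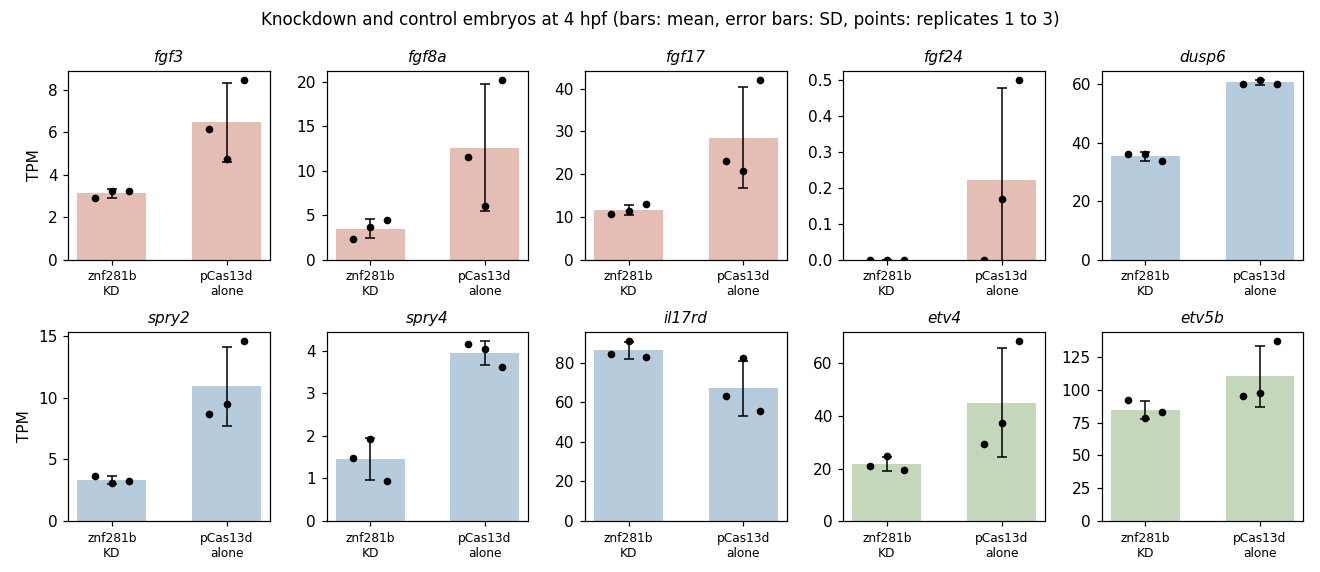
TPM (vertical axes, starting at 0, with a scale of its own per gene) in znf281b KD and pCas13d alone embryos at 4 hpf. Bars are means of 3 libraries, error bars SD and points replicates 1 to 3. The dusp6 libraries sit between 33.71 and 36.31 TPM in KD and between 60.1 and 61.52 TPM in pCas13d alone, whereas the ligand libraries of pCas13d alone are widely spread.

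The inhibitors dusp6 and spry2 carried the firmest differences. dusp6 stood at 36.31, 36.08 and 33.71 TPM in KD embryos, against 60.1, 61.52 and 60.17 TPM in pCas13d alone embryos. spry2 stood at 3.68, 3.07 and 3.21 TPM in KD embryos, against 8.67, 9.44 and 14.58 TPM in pCas13d alone embryos. Both sets of libraries were far apart. The log2(TPM + 1) difference was -0.76 for dusp6 (SE 0.10, limma adjusted p = 0.00523) and -1.43 for spry2 (SE 0.22, limma adjusted p = 0.00917), and both passed under every alternative setting and with any 1 library left out. spry4 stood at 1.48, 1.93 and 0.95 TPM in KD embryos, against 4.17, 4.04 and 3.62 TPM in pCas13d alone embryos (log2 difference -1.03, SE 0.21, limma adjusted p = 0.0241).

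Of the ligands, fgf17 stood at 10.65, 11.32 and 13.03 TPM in KD embryos, against 23, 20.66 and 42.08 TPM in pCas13d alone embryos (log2 difference -1.16, SE 0.25, limma adjusted p = 0.0281). fgf8a stood at 2.31, 3.71 and 4.5 TPM in KD embryos, against 11.58, 6.05 and 20.25 TPM in pCas13d alone embryos (log2 difference -1.49, SE 0.38, limma adjusted p = 0.0484). In both, control replicate 3 was far above the other controls. fgf3 stood at 2.89, 3.26 and 3.24 TPM in KD embryos, against 6.18, 4.77 and 8.48 TPM in pCas13d alone embryos, and missed the threshold (log2 difference -0.83, SE 0.22, limma adjusted p = 0.0518), which it passed after scaling (-0.91, limma adjusted p = 0.0476). fgf24 was listed at 0 in all KD libraries and at 0, 0.17 and 0.5 TPM in pCas13d alone embryos, too low to be tested. Outside the 10 genes, fgf20a stood at 4.78, 3.69 and 6.94 TPM in KD embryos, against 5.87, 4.58 and 2.59 TPM in pCas13d alone embryos, with groups that overlapped (log2 difference 0.22, SE 0.29, limma adjusted p = 0.676).

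The calls for fgf8a, fgf17 and spry4 were lost without pCas13d alone replicate 1 and without any 1 of the 3 KD replicates. Without these libraries the adjusted p was 0.0876 to 0.155 for fgf8a, 0.0631 to 0.103 for fgf17 and 0.0578 to 0.0871 for spry4, with log2 differences of -1.28 to -1.65, -1.10 to -1.27 and -0.87 to -1.17. Without pCas13d alone replicate 3, the library that stood apart, fgf8a differed by -1.09 (adjusted p = 0.0789), and 4 of the 9 genes fell. Without the filter on low TPM the 3 calls were lost as well (adjusted p = 0.122 for fgf8a, 0.0784 for fgf17 and 0.0737 for spry4), and that of fgf8a also without the mean trend (adjusted p = 0.0762). Without pCas13d alone replicate 2, 7 of 9 passed, among them fgf3 (-1.0, adjusted p = 0.0249) and il17rd, which was then higher in KD embryos (0.53, adjusted p = 0.0207).

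The genes with a large egg supply, and etv4, did not pass. il17rd stood at 84.68, 91 and 83.03 TPM in KD embryos, against 63.22, 82.61 and 55.42 TPM in pCas13d alone embryos (log2 difference 0.38, 95% confidence interval 0.04 to 0.71, limma adjusted p = 0.141). etv5b stood at 92.2, 78.5 and 83.05 TPM in KD embryos, against 95.26, 97.88 and 137.1 TPM in pCas13d alone embryos (log2 difference -0.36, 95% confidence interval -0.70 to -0.02, limma adjusted p = 0.162). etv4 stood at 21.01, 24.87 and 19.49 TPM in KD embryos, against 29.21, 37.34 and 68.54 TPM in pCas13d alone embryos (log2 difference -0.93, 95% confidence interval -1.56 to -0.29, limma adjusted p = 0.0718). For etv4 the groups were free of overlap, and control replicate 3 was far above the other controls.

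Further pathway genes were read from the same test. fgfr4 stood at 25.17, 21.02 and 24.26 TPM in KD embryos, against 55.46, 63.44 and 79.27 TPM in pCas13d alone embryos (log2 difference -1.44, SE 0.15, limma adjusted p = 0.00253). Its groups were clear of each other. Over the 6 lists of other pathway genes 68 were tested, of which 4 rose (5.88%, against 6.32% of all genes) and 4 fell (5.88%, against 3.05%), and after scaling 2 rose and 5 fell. Those that rose were ksr1b, a scaffold of the MAP kinase cascade (0.98, adjusted p = 0.0128), cica, a Capicua repressor of Ets gene transcription (0.83, adjusted p = 0.0246), etv5a (0.70, adjusted p = 0.0482) and rasa1a, a Ras GTPase-activating protein (0.52, adjusted p = 0.0458). fgfr4, flrt3 (-1.24, adjusted p = 0.0405) and the heparan sulphate proteoglycan gene sdc4 (-0.40, adjusted p = 0.0317) were among those that fell. Except for fgfr4, each of these named genes lost its call without KD replicate 1, with adjusted p of 0.0636 for ksr1b, 0.0835 for cica, 0.139 for etv5a, 0.153 for rasa1a, 0.139 for flrt3 and 0.135 for sdc4. ksr1b also lost it without KD replicate 2 (adjusted p = 0.0755). The other 5 lost it without any 1 KD replicate or pCas13d alone replicate 1 as well (adjusted p of 0.0707 to 0.158), and rasa1a, flrt3 and sdc4 without pCas13d alone replicate 3 (adjusted p = 0.0723, 0.053 and 0.0506). Without the filter on low TPM these 5 missed the threshold too (adjusted p of 0.0729 to 0.116), as did etv5a and rasa1a after scaling (adjusted p = 0.058 and 0.0555).

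Summed levels of markers of other cells and of the egg supply differed in the knockdown as well. Of 14 margin and mesendoderm markers 12 were tested and 5 fell, against 3.05% of all tested genes. Their summed TPM was 210.55 to 245.74 in KD embryos and 308.32 to 651.68 in pCas13d alone embryos. Much of that sum was tbx16, at 47.98 to 51.03 TPM in KD and 84.65 to 222.73 TPM in pCas13d alone embryos. noto, at 54.01 to 68.48 and 90.38 to 179.73 TPM, held another large part. The libraries of other markers, among them ndr1, ndr2, lft1 and mixl1, overlapped between the groups. Of 9 enveloping layer and yolk syncytial layer markers 8 were tested and 3 fell, against the same 3.05%. Their sums were 523.1 to 612.91 TPM in KD embryos and 657.88 to 1427.26 TPM in pCas13d alone embryos. Of 13 maternal oocyte transcripts only 1, buc, rose, against 6.32% of all tested genes. Their sums were 2217.77 to 2383.96 TPM in KD embryos and 1114.41 to 1873.24 TPM in pCas13d alone embryos. None of the 3 sums overlapped between the groups, and 0 genes of the 3 lists were at 0 in all libraries of either group. The part of these cells and transcripts in the differences of the Fgf genes was not tested.

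The wild-type embryos at 4 hpf can only be set beside the knockdown table, because the tables were normalised separately and sequenced on different instruments. dusp6 averaged 35.4 TPM in KD embryos, 60.6 TPM in pCas13d alone embryos and 24.0 TPM in wild-type embryos. spry2 averaged 3.32, 10.9 and 5.62 TPM in KD, pCas13d alone and wild-type embryos, fgf17 averaged 11.7, 28.6 and 14.9 TPM, and il17rd averaged 86.2, 67.1 and 30.1 TPM. For dusp6 and il17rd every library of the knockdown table was above the wild-type libraries. For spry2 the KD libraries lay below the wild type, and those of pCas13d alone above it. The fgf17 libraries of KD (10.65 to 13.03 TPM) lay inside the wild-type range (8.06 to 23.83 TPM), and those of pCas13d alone (20.66 to 42.08 TPM) overlapped with it. For fgf8a the KD libraries (2.31 to 4.5 TPM) also lay inside the wild-type range (2.29 to 13.58 TPM), and those of pCas13d alone (6.05 to 20.25 TPM) overlapped with it. The spry4 libraries of KD (0.95 to 1.93 TPM) overlapped with the wild type (1.35 to 2.15 TPM), and those of pCas13d alone (3.62 to 4.17 TPM) lay above it. znf281b itself averaged 156 TPM in KD embryos, 252 TPM in pCas13d alone embryos and 127 TPM in wild-type embryos.

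In the oocyte libraries dusp6 was listed at levels not seen in the 0 hpf libraries. It stood at 3.59 and 2.99 TPM at stage I, 3.39 and 4.08 TPM at stage II, 26.28 and 12.68 TPM at stage III, and 30.82 and 21.21 TPM at stage IV, beside at most 0.11 TPM at 0 hpf in the embryo table. These tables can only be set side by side, since RNA input differed and no test crossed them. Markers of ovarian follicle cells, given below, were also higher in the oocyte libraries than in embryos. The libraries of stages III and IV were all above those of stages I and II. dusp6 was the 1 of 7 tested members that rose at stage III compared with stage II, against 2.0% of all tested genes, and 0 fell, against 0.529%. Its log2(TPM + 1) difference was 2.03 (SE 0.38, limma adjusted p = 0.0376), and the call was lost without stage II replicate 1 (adjusted p = 0.266), stage II replicate 2 (0.159) or stage III replicate 1 (0.255), and without the filter on low TPM (0.0937). For stage IV minus stage I it was 2.64 (SE 0.38, limma adjusted p = 0.00108).

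Between stages II and I 0 of the 7 tested members passed the limma test, against 0.174% of all tested genes, of which 1833 had an unadjusted p under 0.05. At stage IV compared with stage III 0 rose, against 14.3% of all genes, and 2 fell, against 13.3%. etv5b stood at 75.6 and 45.2 TPM at stage I, 103.17 and 74.42 TPM at stage II, 68.37 and 52.11 TPM at stage III, and 21.71 and 23.23 TPM at stage IV. il17rd stood at 21.52 and 15.36 TPM at stage I, 26.9 and 21.52 TPM at stage II, 21.35 and 18.17 TPM at stage III, and 6.35 and 9.04 TPM at stage IV. For both genes stage IV was below all earlier libraries. The log2(TPM + 1) difference for stage IV minus III was -1.37 for etv5b (SE 0.28, limma adjusted p = 0.00961) and -1.27 for il17rd (SE 0.27, limma adjusted p = 0.0124). The etv5b call was lost without replicate 1 of stage III (adjusted p = 0.0703) or of stage IV (0.0626), and the il17rd call without either stage III replicate (0.0845 and 0.0571) or stage IV replicate 1 (0.0791).

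At stage IV compared with stage I 3 of the 7 rose, against 22.9% of all genes, and 3 fell, against 22.4%. Those that rose were dusp6, etv4 (1.77, limma adjusted p = 0.0417) and spry4 (1.31, limma adjusted p = 0.0324). At stage I spry4 stood at 0.66 and 0.14 TPM, and it entered the test only through the later stages. Its call thus describes the gene and is not support for a rise. Those that fell were fgf8a (-1.21, limma adjusted p = 0.0109), il17rd (-1.16, limma adjusted p = 0.0101) and etv5b (-1.34, limma adjusted p = 0.00561). etv4 stood at 4.41 and 0.44 TPM at stage I and at 11.12 and 6.43 TPM at stage IV, so that the groups were apart but widely spread. The etv4 call was lost without stage I replicate 2 (0.81, adjusted p = 0.158), stage IV replicate 1 (adjusted p = 0.211) or stage IV replicate 2 (adjusted p = 0.0788), the spry4 call without stage I replicate 2 (adjusted p = 0.137) or stage IV replicate 1 (adjusted p = 0.17), and the il17rd call without stage IV replicate 1 (adjusted p = 0.0692). The etv4 call was also lost with a pseudocount of 0.1 (adjusted p = 0.0502), without the filter on low TPM (0.0848) and with only the 2 stages in the fit (0.0646), and the spry4 call without the filter (adjusted p = 0.0725). spry2 stayed between 2.91 and 6.92 TPM in all 8 oocyte libraries and passed no test there. fgf3 was listed at 0 in all oocyte libraries, and fgf17 and fgf24 did not exceed 0.24 TPM.

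**Figure D5:**
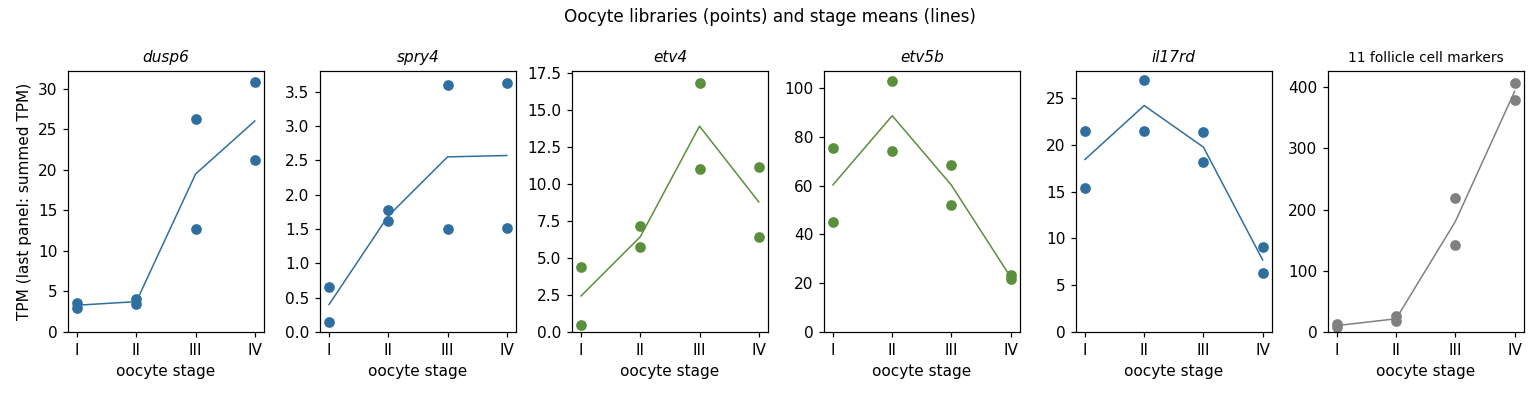
TPM (vertical axes, starting at 0) of dusp6, spry4, etv4, etv5b and il17rd by oocyte stage, with the summed TPM of 11 ovarian follicle cell markers in the last panel. Points are the 2 libraries per stage and lines join stage means. dusp6 and the follicle marker sum both climb from stage II to stage IV, and etv5b and il17rd are lowest at stage IV.

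Markers of ovarian follicle cells, which surround the oocyte, moved with the stages. The summed TPM of 11 such markers was 7.8 to 12.91 at stage I, 17.28 to 25.68 at stage II, 142.82 to 218.43 at stage III and 379.51 to 407.17 at stage IV, beside at most 0.94 in the embryo table. Only lhcgr, at stage I, was at 0 in both libraries of a stage. The isolation method differed between these stages too. The 9 enveloping layer and yolk syncytial layer markers summed to 854.57 TPM in stage IV replicate 1 and 83.41 TPM in stage IV replicate 2. At earlier stages that sum was at most 18.92 TPM. Stage IV replicate 1 also held the higher stage IV value of dusp6, spry2, spry4, etv4 and fgf8a, and the lower value of etv5b and il17rd. The sum of the 13 maternal oocyte transcripts averaged 18761.09 TPM at stage I and 12318.28 TPM at stage IV. Set side by side, etv5b averaged 22.5 TPM at stage IV and 67.5 TPM at 0 hpf. For il17rd these means were 7.7 and 40.1 TPM, and for fgf8a 1.675 and 2.14 TPM. The part of other cells and of isolation in the oocyte values of the members, rises and falls alike, was not tested.

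The genes nearest in level and course to each member were sought over the 12 embryo libraries, as the smallest root-mean-square difference of log2(TPM + 1). The nearest to fgf24 was fmnl1a, at 0.07, and the nearest to il17rd was rhoac, at 0.11. etv5b had ddx18 at 0.17, fgf3 had tgfbr1b at 0.19, etv4 had atf4a at 0.24, spry4 had ftr90, a symbol that another identifier shares, at 0.24 and fgf17 had isg15 at 0.25. dusp6 had plekhn1 at 0.28, spry2 had yaf2 at 0.30 and fgf8a had si:ch211-223a21.4 at 0.37. plekhn1 averaged 0.08, 0.08, 24.3 and 80.8 TPM at 0, 2, 4 and 6 hpf, beside 0.10, 0.11, 24.0 and 84.5 TPM for dusp6. None of these 10 neighbours was another member of the set.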

How the data were processed

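The authors deposited TPM per gene in 3 tables, for embryos, oocytes and the knockdown, and these were used as deposited. Per the submitters' processing notes, the tools were STAR 2.7.3a and RSEM and the genome build danRer11. Per the labels' protocols, embryo (500 ng RNA) and oocyte (100 ng RNA) libraries were stranded and depleted of ribosomal RNA, and the knockdown libraries ran on another sequencer (G4). The annotation release is not given in the sources used here.

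Groups came from sample titles. log2(TPM + 1) was fitted with limma 3.58.1 in R 4.3.3, once per table with every group included, and variances were moderated towards a trend on the mean. A gene was tested if it reached 1 TPM in 3 or more libraries (2 for oocytes), which kept all 10 members in embryos, 9 in the knockdown and 7 in oocytes. Benjamini-Hochberg adjustment ran over all genes tested, and genes were called at an adjusted p under 0.05 with no minimum fold change. Exact permutation tests used SciPy 1.17.1 in Python 3.11.15. Differences on the log2(TPM + 1) scale understate changes of genes with low TPM, and no test crossed tables. The tables held 0 columns of samples from elsewhere.

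The named genes were the 10 members, znf281b, the up to 3 largest called rises and falls per pathway list that averaged 5 TPM or more in the higher group, other Fgf ligands and receptors reaching 5 TPM, and the 3 genes nearest in pattern to each member, of which the nearest is given. The members and lists were chosen with earlier results of these data known. Symbols that matched several identifiers (fgfr1bl, raf1a and wnt8a) were not used. The method was run on simulated data for the first comparison of each table only, with changes set in genes well above 0 TPM. That run does not cover the later embryo steps, the later oocyte stages or members near 0 TPM. Alternatives changed the pseudocount to 0.1, dropped the filter or required a mean of 5 TPM, scaled TPM by the median of ratios, dropped the mean trend, added the replicate number, fitted only the groups compared, or left out 1 library. Deviations from the group means of same-numbered libraries correlated at 0.32, 0.127 and 0.181 for 6 and 4 hpf, so from the data, not the labels, the numbers pair these libraries, and a block on those 2 times alone was added. With 1 oocyte library left out, the lone library of that stage is assumed to vary like the other stages. Genome positions and sequences are not used here.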

Additional observations from a re-analysis of the deposited data

How the results depend on the processing

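Counts of called members were the same, or within 1.5 times, for the 4 embryo comparisons under every alternative run. In the knockdown the count of 5 fell to 2 without the filter on low TPM, and ranged from 2 to 7 when 1 library was left out. For oocyte stage III compared with II the count of 1 became 0 without the filter and ranged from 0 to 1 with 1 library left out. With 1 library left out it ranged from 0 to 2 for stage IV compared with III and from 3 to 6 for stage IV compared with I. Of the 593 values of single members under an alternative, 541 kept direction and side of the threshold, 41 lost the call, 4 gained it and 7 turned round. Those that turned after median-of-ratios scaling were il17rd, at 0.156, 0.38 and 0.548 for 4 minus 2, 6 minus 4 and 6 minus 0 hpf, and etv5b, at 0.248 for 4 minus 2 hpf. fgf17 for 6 minus 4 hpf ranged from -0.316 to 0.411 with 1 library left out, at -0.01, -0.316 and -0.041 without 4 hpf replicate 1, 4 hpf replicate 3 and 6 hpf replicate 3, and fgfr1a turned to 0.228 after scaling. The cause of these changes was not tested.

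Counts of other pathway genes moved more. For 4 compared with 2 hpf, 45 (11 rose, 34 fell) became 29 (20 rose, 9 fell) after scaling. For 6 compared with 4 hpf 17 rose and 42 fell, or 27 and 30 after scaling, and for 6 compared with 0 hpf 15 rose and 46 fell, or 30 and 28 after scaling. In the knockdown 8 became 2 without the filter and 4 without the mean trend, and ranged from 1 to 18 with 1 library left out. For stage III compared with II 2 became 1 with a pseudocount of 0.1, 0 without the filter, 0 with a mean of at least 5 TPM, 4 after scaling and 4 with the 2 groups only, and was 0 with any 1 library left out. For stage IV compared with III 19 became 10 with a mean of at least 5 TPM and ranged from 4 to 12 with 1 library left out.

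By the data, replicate numbers matched the libraries of 6 and 4, of 4 and 0 and, more weakly, of 6 and 0 hpf. Same-numbered libraries correlated at 0.158 to 0.215 for 4 and 0 hpf, against -0.151 to -0.064 for differing numbers. For 6 and 0 hpf they correlated at 0.086 to 0.144. In these pairs of times every library correlated best with its own number, but not for the knockdown or 4 and 2 hpf. Replicates 1, 2 and 3 of 2 hpf correlated best with replicates 2, 3 and 1 of 0 hpf (0.319, 0.227 and 0.221), and likewise at 4 and 6 hpf. A block on the number thus cannot check pairing for 2 hpf. Same-numbered correlations were -0.141 to -0.083 for 4 and 2 hpf, -0.016 to 0.135 in the knockdown and -0.111 to 0.437 in oocytes. With 2 libraries per oocyte stage, differing numbers give the same values with the sign turned. With the replicate number as a block, the called members were 5 in the knockdown and 9, 9 and 10 at 4 compared with 2, 6 compared with 4 and 6 compared with 0 hpf, and the other pathway genes called at stage III compared with II were 1 in place of 2. A block fitted to 4 and 6 hpf alone, chosen after seeing the data, called 9 members and 55 other pathway genes, and neither block changed a call of a member. Depth is unknown for TPM, so genes of a few TPM are the least precise.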

Other observations

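Genes that make or carry heparan sulphate, the sugar chain that helps Fgf ligands bind their receptors, moved in both directions at 6 compared with 4 hpf. In TPM the median difference of that list was below that of all genes. Of 17 matched genes 15 were tested, of which 4 rose (26.7%, against 22.8% of all genes) and 10 fell (66.7%, against 55.8%) at 6 compared with 4 hpf, and 6 rose and 8 fell after median-of-ratios scaling, beside medians of -1.14 for the list and -0.56 for all genes. The sulphotransferase gene hs6st2 rose to 97.8 ± 9.06 TPM at 6 hpf, against 24.9 ± 4.56 TPM at 4 hpf (log2 difference 1.94, SE 0.13, limma adjusted p = 2.78e-08, n = 3 each). The glypican gene gpc4 rose to 56.9 ± 9.29 TPM at 6 hpf, against 17.3 ± 3.67 TPM at 4 hpf (limma adjusted p = 7.24e-07). The chain-polymerase genes ext1b and ext1a fell to 4.09 ± 1.13 and 8.10 ± 2.25 TPM at 6 hpf, against 20.4 ± 3.26 and 28.2 ± 2.48 TPM at 4 hpf (limma adjusted p = 1.05e-07 and 2.87e-07).

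Of 26 matched genes that relay the signal to MAP kinase 24 were tested. At 6 compared with 4 hpf 3 rose (12.5%, against 22.8% of all genes) and 17 fell (70.8%, against 55.8%), and 7 rose and 13 fell after scaling. The adaptor gene frs2a, whose product docks on Fgf receptors, rose to 12.4 ± 2.11 TPM at 6 hpf, against 1.67 ± 0.79 TPM at 4 hpf (log2 difference 2.36, SE 0.20, limma adjusted p = 2.17e-07, n = 3 each). The adaptor gene grb2a fell to 3.23 ± 0.88 TPM at 6 hpf, against 10.7 ± 2.56 TPM at 4 hpf (limma adjusted p = 4.22e-06), while its paralogue grb2b rose to 34.6 ± 0.96 TPM, against 24.5 ± 3.44 TPM (limma adjusted p = 0.00169).

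Other MAPK phosphatase genes were called in both directions at stage IV compared with stage III, a step at which 14.3% of all tested genes rose and 13.3% fell. The summed follicle cell markers averaged 180.62 TPM at stage III and 393.34 TPM at stage IV, and the isolation method differed. The part of both in these values was not tested. At stage IV compared with stage III dusp4 fell to 8.89 ± 1.15 TPM, against 30.5 ± 2.16 TPM (limma adjusted p = 0.0022), and dusp7 fell to 4.90 ± 0.44 TPM, against 13.8 ± 0.73 TPM (limma adjusted p = 0.00689). dusp1 rose to 198 ± 10.4 TPM, against 111 ± 2.50 TPM (limma adjusted p = 0.0111, SD, n = 2 each). The call for dusp7 was lost without stage III replicate 1 (limma adjusted p = 0.0542), and that for dusp1 without stage III replicate 1, stage III replicate 2 or stage IV replicate 1 (limma adjusted p = 0.0613, 0.076 and 0.0659).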
